A study of Mus musculus with 6 samples.

Results

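The genes described here build cholesterol or control the SREBP transcription factors that switch that pathway on. The list names 27 mouse genes, chosen by their known roles. A gene was represented by the probe set, among those annotated to that gene alone, with the highest mean log2(signal + 50) over all 6 arrays. Of the 27 genes, 26 had such a probe set, and all 26 passed the filter on low signals, out of 9361 genes that passed it and 18193 genes with a probe set in all. No expression value is given for Acat2, the cytosolic acetoacetyl-CoA thiolase, and only its promoter window was examined here.

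Messenger RNA was measured on Affymetrix Mouse Genome 430 2.0 arrays in E0771-HML2 cells (3 arrays, numbered replicates 1 to 3) and in the parental E0771 cells they came from (3 arrays, likewise numbered). E0771 is a mammary tumour cell line of C57BL/6 mice. HML2 cells are a second-generation population: after injection into mammary fat pads of syngeneic mice, cells that had spread to the lung were collected, and the selection was run again. The labels name no engineered allele and no agent for either group, and all 6 cultures grew for 3 days with 10% fetal bovine serum, itself a source of sterols. The labels call the arrays of a group biological replicates without saying whether the HML2 cultures descend from different mice, so a p-value here reflects culture-to-culture spread alone.

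Cells make cholesterol from acetyl-CoA in a chain of enzymes. The first arm leads through mevalonate to farnesyl diphosphate, the branch point to prenylated proteins, dolichol and coenzyme Q. The second closes the chain into lanosterol, and the last turns lanosterol into cholesterol. When sterols in the endoplasmic reticulum run low, the escort protein Scap carries SREBP precursors to the Golgi, where proteases release the active factor, and SREBP then raises transcription of nearly all of these enzymes. When sterols are plentiful, Insig proteins hold Scap and its cargo back. SREBP binds its targets beside NF-Y and Sp1, factors that recognise the CCAAT box and GC-rich boxes.

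The 6 promoters printed here belong to the genes the results turn on: Msmo1, Cyp51 and Ebp, which were higher in HML2 cells, Nsdhl, which was lower, and Idi1 and Hmgcs1, which differed most between arrays of the HML2 group among the mevalonate enzymes. They are RefSeq windows of build GRCm38.p6, 250 bases before to 50 after the start, written along the strand of the gene. Capitals mark every CCAAT, on either strand (so also ATTGG), and every match to the letters TCACNCCAC or CACCCCAC, cores of the sterol regulatory element that overlap each other.
Msmo1, chr8:64733529-64733828, minus strand: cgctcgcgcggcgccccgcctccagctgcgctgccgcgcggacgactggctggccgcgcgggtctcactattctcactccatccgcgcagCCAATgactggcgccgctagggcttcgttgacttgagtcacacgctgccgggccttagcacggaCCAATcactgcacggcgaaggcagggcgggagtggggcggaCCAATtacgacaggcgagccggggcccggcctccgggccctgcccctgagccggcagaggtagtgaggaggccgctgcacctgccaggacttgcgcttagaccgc
Cyp51, chr5:4104648-4104947, minus strand: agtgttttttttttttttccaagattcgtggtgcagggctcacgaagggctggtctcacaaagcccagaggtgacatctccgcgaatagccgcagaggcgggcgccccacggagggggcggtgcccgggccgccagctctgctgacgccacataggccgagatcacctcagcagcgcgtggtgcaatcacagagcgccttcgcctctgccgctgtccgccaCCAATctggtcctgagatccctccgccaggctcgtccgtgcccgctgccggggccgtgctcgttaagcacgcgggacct
Ebp, chrX:8193463-8193762, minus strand: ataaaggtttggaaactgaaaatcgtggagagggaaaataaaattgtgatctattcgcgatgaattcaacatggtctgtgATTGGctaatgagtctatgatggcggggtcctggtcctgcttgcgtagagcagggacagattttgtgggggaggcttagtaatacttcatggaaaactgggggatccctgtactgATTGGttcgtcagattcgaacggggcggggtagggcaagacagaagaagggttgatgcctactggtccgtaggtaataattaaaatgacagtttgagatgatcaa
Nsdhl, chrX:72918271-72918570, plus strand: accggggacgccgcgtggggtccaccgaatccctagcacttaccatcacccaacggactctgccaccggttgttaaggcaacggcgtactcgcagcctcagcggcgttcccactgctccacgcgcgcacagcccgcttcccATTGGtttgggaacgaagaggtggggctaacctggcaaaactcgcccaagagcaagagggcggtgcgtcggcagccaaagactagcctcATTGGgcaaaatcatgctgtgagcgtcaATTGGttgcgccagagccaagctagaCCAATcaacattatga
Idi1, chr13:8885356-8885655, plus strand: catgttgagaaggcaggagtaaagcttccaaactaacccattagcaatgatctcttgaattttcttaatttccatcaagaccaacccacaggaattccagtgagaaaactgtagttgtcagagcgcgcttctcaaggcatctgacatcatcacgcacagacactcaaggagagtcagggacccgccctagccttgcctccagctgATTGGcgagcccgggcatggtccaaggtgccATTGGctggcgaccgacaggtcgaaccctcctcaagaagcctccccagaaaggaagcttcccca
Hmgcs1, chr13:119690101-119690400, plus strand: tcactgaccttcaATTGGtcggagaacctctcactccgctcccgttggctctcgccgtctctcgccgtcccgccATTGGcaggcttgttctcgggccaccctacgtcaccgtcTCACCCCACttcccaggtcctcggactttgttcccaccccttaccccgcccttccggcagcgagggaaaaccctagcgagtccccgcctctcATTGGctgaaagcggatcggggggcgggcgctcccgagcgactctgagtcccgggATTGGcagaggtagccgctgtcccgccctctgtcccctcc

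Promoter windows were found for 22 of the 27 listed genes (30 windows). They were not found for Fdps, Fdft1, Sqle, Npc1 and Stard4. A CCAAT box on either strand was present in 20 of the 22 genes, against 43.1% of the 7696 tested genes with a window. The Sp1 letters GGGCGG were present in 20 of 22, against 72.2% of tested genes, and the E-box CACGTG in 5 of 22, against 12.4%. The core TCACNCCAC was found in 1 gene, Hmgcs1, where it begins 137 bases before the start and overlaps CACCCCAC; 1.39% of tested genes hold it. CACCCCAC was found in Hmgcs1 and Acat2, against 3.79% of tested genes. Over all 32851 promoter windows of the table, 37.4% hold CCAAT, 35.7% GGGCGG, 7.15% CACGTG, 1.24% TCACNCCAC and 2.87% CACCCCAC, all counted on both strands. The promoter of Msmo1 holds 3 CCAAT boxes and that of Nsdhl 4, although these genes differed in opposite directions. These matches describe letters in a window and not binding.

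Before any comparison, replicate 1 stood apart. Across all tested genes, the deviation of HML2 replicate 1 from its group mean had a correlation of 0.45 with that of parental replicate 1. Its correlations with the other parental arrays were -0.35 and -0.19. Deviations from a group mean cancel out within the group for each gene, so these negative values are no separate evidence. Arrays that share a number correlated at 0.45, 0.34 and 0.24, and results are therefore also given with the replicate number as a block where that changes a call. HML2 replicate 3 correlated as much with parental replicate 2 (0.24) as with parental replicate 3, so the number marks no clear partner for it. Calls made only with the block rest on this pairing. All arrays had been scaled to a trimmed mean of 500, and the share of probe sets at a signal of at least 100 was 39.7% to 40.2% on HML2 and 40.5% to 41.6% on parental arrays. Bacterial control probe sets, a gauge of background, read between 1.97 and 36.2. The ratio of 3' to 5' beta-actin probe sets was 1.36 to 1.39 on HML2 and 1.41 to 1.53 on parental arrays, and its part in the results was not tested. Of the tumour cell markers, Vim, Cd44 and Krt8 were bright, with Krt8 at 3592 to 4875 in HML2 and 1034 to 1154 in parental cells, whereas Epcam read 68.9 to 156.7 and Krt18 25.4 to 100.5. The leukocyte marker Ptprc read 0.994 to 19.8 and the endothelial marker Pecam1 5.09 to 11.3, no higher than the highest bacterial control. Cd3e (6.14 to 24.9) and Tie1 (1.35 to 2.73) were as low. The leukocyte markers Lyz2 (69.7 to 226), Cd68 (47.6 to 216) and Csf1r (46.7 to 140) lay above that control on every array. The endothelial markers Kdr (27.5 to 108) and Cdh5 (8.91 to 72.4) did so on some arrays. Summed over their list, leukocyte markers gave 189 to 437 in HML2 and 363 to 411 in parental cells. Endothelial markers gave 107 to 135 in HML2 and 61.2 to 136 in parental cells. Lung epithelial markers gave 136 to 247 in HML2 and 113 to 205 in parental cells. Adipocyte markers gave 54.6 to 106 in HML2 and 40.7 to 79.4 in parental cells.

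**Figure D1:**
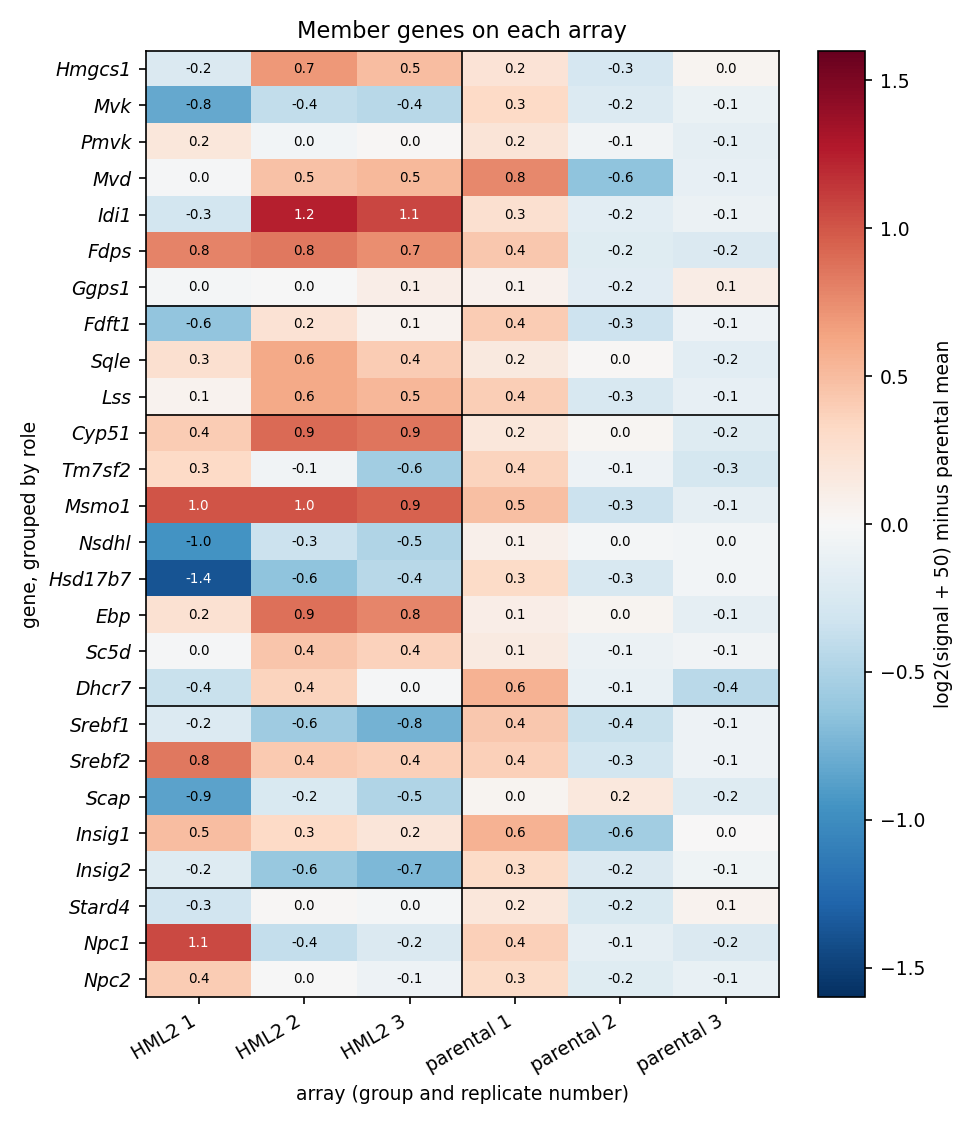
Log2(signal + 50) of each of the 26 genes (rows, grouped from mevalonate enzymes at the top to sterol transport at the bottom) on each array (columns, HML2 left of parental), relative to the mean of the 3 parental arrays. Red is above and blue below that mean; Msmo1 and Fdps are red on all 3 HML2 arrays, while Idi1 is red on HML2 replicates 2 and 3 only.

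The comparison of HML2 with parental cells asks whether the lung-selected population transcribes the pathway differently. Differences passed the test at a few steps. Farnesyl diphosphate synthase (Fdps) and 3 enzymes that work on lanosterol and its products (Cyp51, Msmo1 and Ebp) were higher in HML2 cells by 1.55- to 1.98-fold, and Nsdhl, which works beside Msmo1, was lower. The other 21 genes did not pass the test (limma, Benjamini-Hochberg adjusted p below 0.05 over all tested genes). Thus 4 of 26 genes, 15.4%, were called higher, where 12.3% of all tested genes were, and 1 of 26, 3.85%, lower, where 14.9% were. The share called higher is near the background, and the count by itself is no result about the list. The median difference of the 26 genes was 0.13 on the log2 scale, beside -0.02 for all tested genes. In cultures measured in bulk, a change in the share of cells that express a gene and a change in the RNA per cell cannot be told apart.

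In the mevalonate arm, Fdps, which makes farnesyl diphosphate, had signals of 4966, 5134 and 4789 on the HML2 arrays (replicates 1, 2 and 3), against 3845, 2474 and 2410.3 on the parental arrays. All HML2 values lay above all parental values, and the highest parental value was that of replicate 1. The log2 difference was 0.79 ± 0.18 (SE, limma adjusted p = 0.012), and the adjusted p was 0.060 without parental replicate 3. Fdps lies on chromosome 3, where the 448 other tested genes had a median difference of 0.20 and 24.3% were called higher. Pmvk, phosphomevalonate kinase, lies on the same chromosome and had a difference of 0.05 ± 0.15 (adjusted p = 0.84).

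Idi1, the isomerase that readies isopentenyl diphosphate for Fdps, was far lower on HML2 replicate 1 than on the other HML2 arrays. It had signals of 1604, 4765 and 4212 in HML2 cells, against 2389.6, 1763 and 1852 in parental cells. HML2 replicates 2 and 3 lay above every parental array, and HML2 replicate 1 below every one. The difference over all arrays was 0.67 ± 0.36 (adjusted p = 0.20), and without HML2 replicate 1 it was 1.16 (adjusted p = 4.2e-04). That array was singled out with its low value known. Leaving out any other single array gave no call, and without HML2 replicate 2 the difference was 0.38 (limma adjusted p = 0.48). Hmgcs1, the HMG-CoA synthase early in this arm, had 3807, 7329 and 6361 in HML2 cells and 5264, 3721 and 4641 in parental cells. Again replicates 2 and 3 of HML2 lay above all parental arrays and replicate 1 did not. Its difference was 0.32 ± 0.24 (adjusted p = 0.35), and 0.60 (adjusted p = 0.012) without HML2 replicate 1. Here too no other single array left out gave a call, and without HML2 replicate 2 the difference was 0.13 (limma adjusted p = 0.74).

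The remaining genes of this arm did not pass the test. Mvk, mevalonate kinase, had 181, 263 and 249.9 in HML2 cells against 461, 302 and 332 in parental cells. The groups did not overlap, with HML2 lower, but the difference of -0.55 ± 0.20 missed the threshold (adjusted p = 0.075, and 0.074 with the replicate block). A dimmer probe set of Mvk differed by -0.03 ± 0.21 (limma adjusted p = 0.94 among all probe sets). The mean of both probe sets gave -0.29 (limma adjusted p = 0.29). Mvd, the decarboxylase that yields isopentenyl diphosphate, read 139 to 224 in HML2 and 72.9 to 277 in parental cells, with a difference of 0.32 ± 0.34 (adjusted p = 0.52). The parental range enclosed all HML2 values. Ggps1, which makes geranylgeranyl diphosphate from farnesyl diphosphate, had 846 ± 44.6 in HML2 and 836 ± 93.6 in parental cells (SD, n = 3 each), a difference of 0.02 ± 0.14.

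Between farnesyl diphosphate and lanosterol stand Fdft1 (squalene synthase), Sqle (squalene epoxidase) and Lss (lanosterol synthase). Sqle had 2583, 3307 and 2858 in HML2 cells, against 2402, 2174 and 1903 in parental cells, with no overlap. Its difference of 0.42 ± 0.14 missed the threshold (adjusted p = 0.055) and passed it with the replicate number as a block (adjusted p = 0.035). Lss had a difference of 0.40 ± 0.22 (adjusted p = 0.21) and Fdft1 one of -0.12 ± 0.26 (adjusted p = 0.78). In both, HML2 replicate 1 was the lowest HML2 array and parental replicate 1 the highest parental array.

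Among the 8 enzymes that turn lanosterol into cholesterol, 3 were higher and 1 lower, where 12.3% and 14.9% of all tested genes were. Msmo1, the methylsterol monooxygenase that starts removal of the methyl groups at carbon C4, had 4875, 4888 and 4666 in HML2 cells, against 3382, 1876 and 2169.7 in parental cells. The HML2 arrays lay close together and all above the parental arrays. The difference was 0.99 ± 0.20 (adjusted p = 0.0077), or 1.98-fold, and it passed the test under all 17 alternatives run for it, with adjusted p-values up to 0.042. Cyp51, the lanosterol demethylase, had 1331, 1912 and 1832 in HML2 cells, against 1129, 1012 and 855 in parental cells. The groups did not overlap, and the difference was 0.72 ± 0.17 (adjusted p = 0.017). That call was lost without HML2 replicate 2, HML2 replicate 3 or parental replicate 3 (adjusted p = 0.059, 0.066 and 0.080). Ebp, a sterol isomerase, had 1051, 1665 and 1549.9 in HML2 cells, against 951, 913 and 793 in parental cells. HML2 replicate 1 was the array nearest to the parental ones, and the difference was 0.63 ± 0.19 (adjusted p = 0.036). Leaving out HML2 replicate 1 kept that call, and leaving out any other array lost it (adjusted p of 0.070 to 0.13), as did dropping the signal filter (0.060).

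Nsdhl and Hsd17b7 act with Msmo1 in removing the C4 methyl groups, Nsdhl as the decarboxylating dehydrogenase and Hsd17b7 as the reductase of the resulting ketone. Nsdhl had 639, 999 and 904 in HML2 cells, against 1361, 1260.0 and 1241 in parental cells. The groups did not overlap, with HML2 replicate 1 lowest, and the difference was -0.60 ± 0.17 (adjusted p = 0.035). The call was lost without HML2 replicate 3 or any parental array (adjusted p of 0.067 to 0.10), with median centring (0.056) and without the signal filter (0.057). Hsd17b7 had 125, 243 and 286 in HML2 cells, against 514, 331 and 390.4 in parental cells, again without overlap. Its difference of -0.82 ± 0.27 missed the threshold (adjusted p = 0.051) and passed it with the replicate block (adjusted p = 0.043). Its dimmer probe sets above the filter gave -0.46 and -0.41 (limma adjusted p = 0.15 and 0.11 among all probe sets). The mean of its probe sets gave -0.56 (limma adjusted p = 0.062). The 3 enzymes of this step thus did not differ in a common direction: Msmo1 was higher, Nsdhl was lower, and Hsd17b7 was lower with the replicate block. Hsd17b7 lies on chromosome 1, where the 519 other tested genes had a median difference of -0.31 and 34.9% were called lower. Nsdhl and Ebp both lie on the X chromosome, where the 265 other tested genes had a median of -0.05. Of these, 21.5% were called lower and 10.6% higher.

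The remaining late enzymes did not pass the test. Sc5d, the sterol desaturase, had 3783 ± 633 in HML2 and 3123 ± 293 in parental cells (SD, n = 3 each). Dhcr7, which catalyses a late reduction, had 549.7 ± 148 in HML2 and 564 ± 221 in parental cells, a difference of -0.00 ± 0.27. Tm7sf2, a sterol reductase, read 62.1 to 155 in HML2 and 85.0 to 160.2 in parental cells, close to the filter on low signals, and had a difference of -0.09 ± 0.27.

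**Figure D2:**
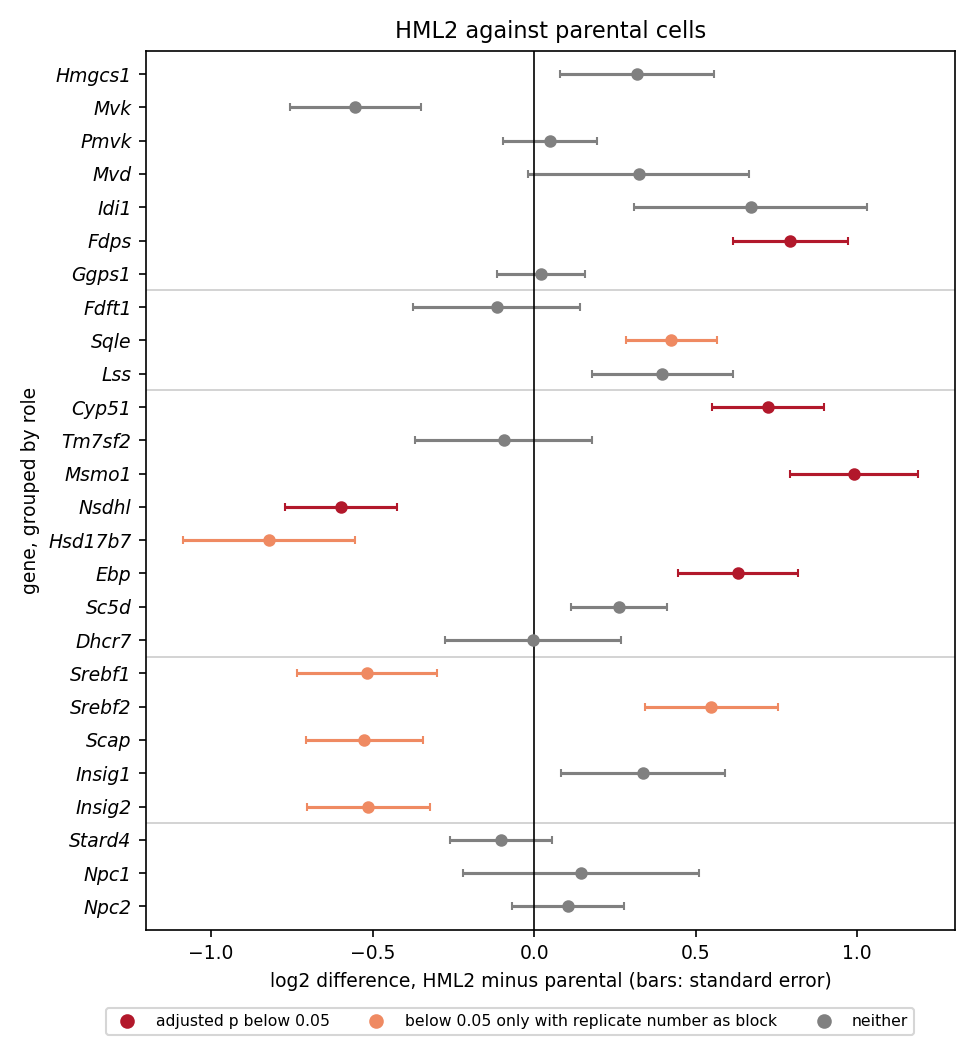
Log2 difference, HML2 minus parental, for the 26 genes (points) with its standard error (bars), grouped by role. Dark red marks adjusted p below 0.05 in the fit without covariates, orange marks genes that passed only with the replicate number as a block; Msmo1 is farthest to the right at 0.99 and Hsd17b7 farthest to the left at -0.82.

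The differences of the 5 genes that control SREBP had both signs. In the fit without covariates 0 of 5 passed the test (limma; at an unadjusted p below 0.05, 1 was higher and 3 lower). At that unadjusted threshold 1715 of the 9361 tested genes were higher and 1955 lower. With the replicate number as a block, 1 was higher and 3 were lower. Over the whole list the block gave 6 genes higher, where it called 17.8% of all tested genes higher, and 5 lower, where it called 19.6% lower.

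Srebf2 encodes SREBP-2, the form that chiefly drives cholesterol synthesis. It had 1430.5, 1056 and 1029 in HML2 cells, against 1024, 626 and 728 in parental cells. Every HML2 array lay above every parental array, by a narrow margin between HML2 replicate 3 and parental replicate 1. The difference was 0.55 ± 0.21 (adjusted p = 0.082), and 0.55 ± 0.12 with the replicate block (adjusted p = 0.011). A dimmer probe set of Srebf2 differed the other way (-0.20 ± 0.23, adjusted p = 0.56 among all probe sets), and the mean of both probe sets gave 0.17 (adjusted p = 0.49). Srebf1 encodes SREBP-1, the form that chiefly drives fatty acid synthesis. It had 3678, 2873.5 and 2523 in HML2 cells, against 5829, 3337 and 4075.5 in parental cells. The groups overlapped, since HML2 replicate 1 exceeded parental replicate 2, but each HML2 array was below the parental array of its number. The difference was -0.52 ± 0.22 (adjusted p = 0.11), and passed with the replicate block (adjusted p = 0.012).

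Scap, the escort of SREBP, had 1316, 2048 and 1728 in HML2 cells, against 2492, 2740 and 2091 in parental cells. The groups did not overlap, HML2 replicate 1 being the lowest, and the difference was -0.53 ± 0.18 (adjusted p = 0.061, and 0.023 with the replicate block). Insig1 and Insig2 encode the retention proteins, of which Insig1 is itself a target of SREBP. Insig2 had 1141, 855 and 787 in HML2 cells, against 1649.6, 1127 and 1260.2 in parental cells. The groups overlapped by 1 array on each side, and each HML2 array was below the parental array of its number. The difference was -0.51 ± 0.19 (adjusted p = 0.078, and 0.014 with the replicate block). All 3 probe sets of Insig2 that passed the filter gave a negative difference, between -0.51 and -0.58. Insig2 lies on chromosome 1 with Hsd17b7, among genes with a median difference of -0.31. Insig1 had 1845, 1621 and 1488.5 in HML2 cells, against 1920.2, 861 and 1295.5 in parental cells. The groups overlapped through parental replicate 1, and the difference was 0.34 ± 0.25 (adjusted p = 0.36, and 0.18 with the replicate block).

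None of the 3 genes of sterol transport passed the test with or without the block (limma; 0 at an unadjusted p below 0.05 without the block). Npc2, which hands cholesterol to Npc1 inside the lysosome, had 6743 ± 1276 in HML2 and 6273 ± 1239 in parental cells (SD, n = 3 each). Stard4, a cytosolic sterol carrier, had 1344.5 ± 163 in HML2 and 1450.4 ± 218 in parental cells. Npc1, the membrane protein that exports cholesterol from lysosomes, had 731, 237 and 270.5 in HML2 cells, against 439.6, 290 and 269 in parental cells. HML2 replicate 1 alone was far above the rest, at 1.36 log2 units over the mean of the other HML2 arrays. The difference between the groups was 0.15 ± 0.37 (adjusted p = 0.80), and without that array it was -0.31 (adjusted p = 0.28). On that array the leukocyte marker list, of which 5 of 6 genes had a probe set, summed to 437, against 273 and 189 on the other HML2 arrays and 363 to 411 on the parental arrays. Its high member there was Cd68 (216, against 55.1 and 47.6), a protein of lysosomal membranes, whereas the defining marker Ptprc read 4.53. The part of these markers in the Npc1 value was not tested.

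Counting genes whose groups did not overlap, 6 of the 26 genes were higher on every HML2 array than on every parental array (Fdps, Sqle, Cyp51, Msmo1, Ebp and Srebf2), where 20.6% of all tested genes were. Another 4 were lower on every HML2 array (Mvk, Nsdhl, Hsd17b7 and Scap), where 23.8% of all tested genes were. Neither share lay far above the background.

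Within each group, the arrays also differed along the replicate number. Replicate 1 of each group was set against the mean of replicates 2 and 3. With 1 array on 1 side, no test was made, and replicate 1 was singled out with earlier results of these data known. On HML2 replicate 1, 14 of the 18 enzymes were below the mean of the other HML2 arrays, and the median of the 18 was -0.49. The 8 genes of SREBP control and sterol transport had a median of 0.44, with 6 of 8 above. Of the 9361 tested genes 4551 were below and 4810 above. Over all 26 genes the median was -0.35, beside 0.01 for all tested genes. HML2 replicate 1 was the lowest HML2 array for 16 of 26 genes, as for 41.5% of tested genes. It was at least 1.5-fold below the others for 5 genes, Idi1 (-1.45), Hsd17b7 (-0.84), Hmgcs1 (-0.83), Fdft1 (-0.78) and Ebp (-0.59), where 8.14% of tested genes were. It was at least 1.5-fold above for 2, Npc1 (1.36) and Tm7sf2 (0.62), where 11.4% were.

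On parental replicate 1, all 26 genes exceeded the average of parental replicates 2 and 3, as did 4958 of the 9361 tested genes. The differences of the 26 genes were 0.06 to 1.15 log2 units with a median of 0.46, while the median of all tested genes was 0.02. Parental replicate 1 was the highest parental array for 24 of the 26 genes, as it was for 39.3% of all tested genes. It was at least 1.5-fold above the others for 8 of 26, where 5.06% of tested genes were, and at least 1.5-fold below for 0 of 26, where 1.61% were. The largest of these differences were 1.15 for Mvd, 0.83 for Insig1 and 0.83 for Dhcr7. Mvd had a signal of 277 on that array, against 72.9 and 125.5 on the other parental arrays. A high parental replicate 1 was not confined to these genes. The fatty acid genes under SREBP-1, listed further below, had a median of 0.38 there and of 0.09 on HML2 replicate 1. The other further lists had medians of 0.03 to 0.24 on parental replicate 1. For 0 of 26 genes was replicate 1 at least 1.5-fold above the others in both groups, where 2.49% of tested genes were, and for 0 of 26 at least 1.5-fold below in both, where 0.609% were.

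Replicate 1 was the lowest HML2 array and the highest parental array together for 14 of the 26 genes, of which 13 were enzymes, and for 9.37% of all tested genes. Fdps and Msmo1 were exceptions: HML2 replicate 1 lay between the other HML2 arrays (differences of 0.00 and 0.03), though parental replicate 1 was high (0.64 and 0.73). Srebf1, Srebf2, Insig1, Insig2, Npc1, Npc2, Tm7sf2 and Pmvk were highest on replicate 1 in both groups.

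**Figure D3:**
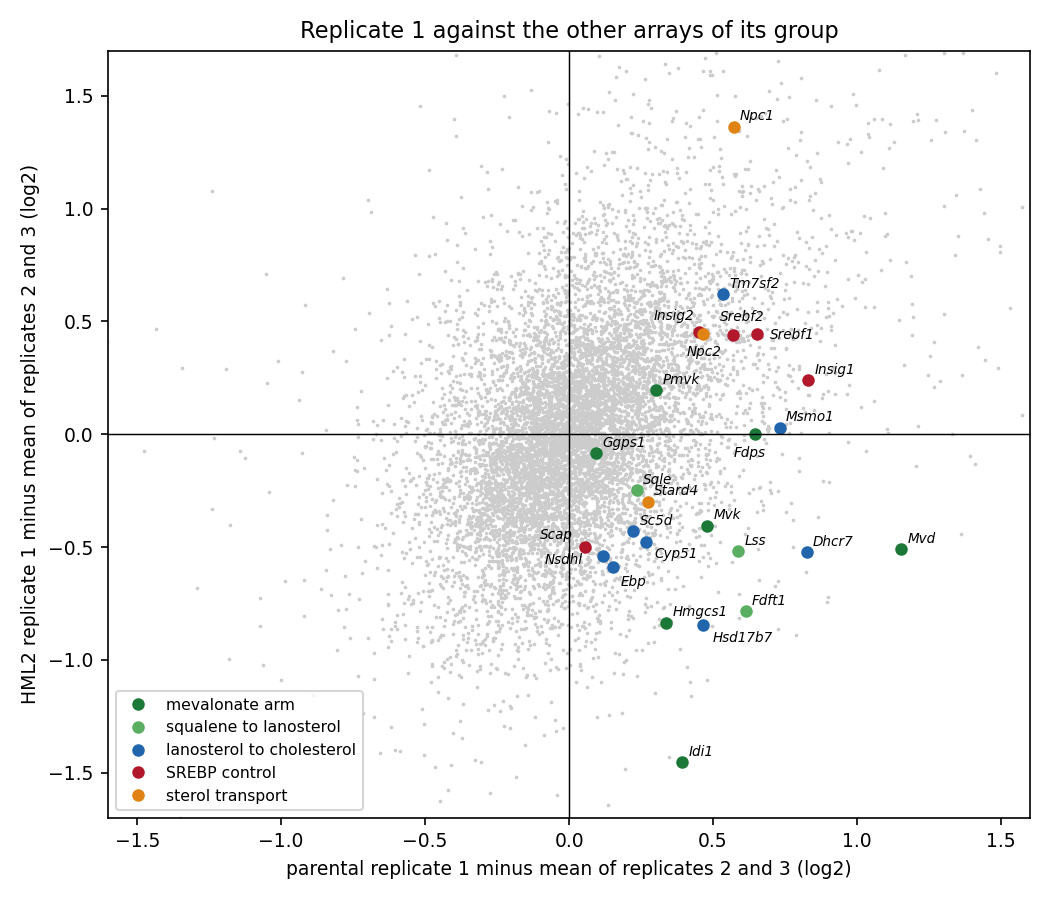
Replicate 1 minus the mean of replicates 2 and 3 in HML2 cells (vertical) against the same in parental cells (horizontal), in log2 units; grey points are all tested genes (73 lie outside the axes) and coloured points the 26 genes by role. All 26 lie right of 0, and 14 of the 18 enzymes lie below 0, with Idi1 lowest at -1.45.

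Without replicate 1 of both groups, which leaves 2 arrays against 2, 13 of the 26 genes were called higher in HML2 cells, where 18.1% of all tested genes were, and 3 lower, where 19.7% were. The median difference of the 26 genes was then 0.40, beside -0.00 for all tested genes. Of the 18 enzymes, 11 were called higher: Hmgcs1 (0.71), Mvd (0.88), Idi1 (1.29), Fdps (1.01), Fdft1 (0.35), Sqle (0.58), Lss (0.77), Cyp51 (0.97), Msmo1 (1.22), Ebp (0.88) and Sc5d (0.48). Adjusted p-values ranged between 1.2e-05 for Idi1 and 0.048 for Fdft1, whose sign was the opposite of that over all arrays. Nsdhl was still lower (-0.38, adjusted p = 0.030). Among the control genes Srebf2 (0.59) and Insig1 (0.53) were higher, and Srebf1 (-0.45) and Insig2 (-0.51) were lower. Since the arrays left out were known beforehand to stand apart, these counts describe the 4 remaining arrays. What sets replicate 1 apart in culture or handling is not given in the labels, and its part in the result was not tested.

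**Figure D4:**
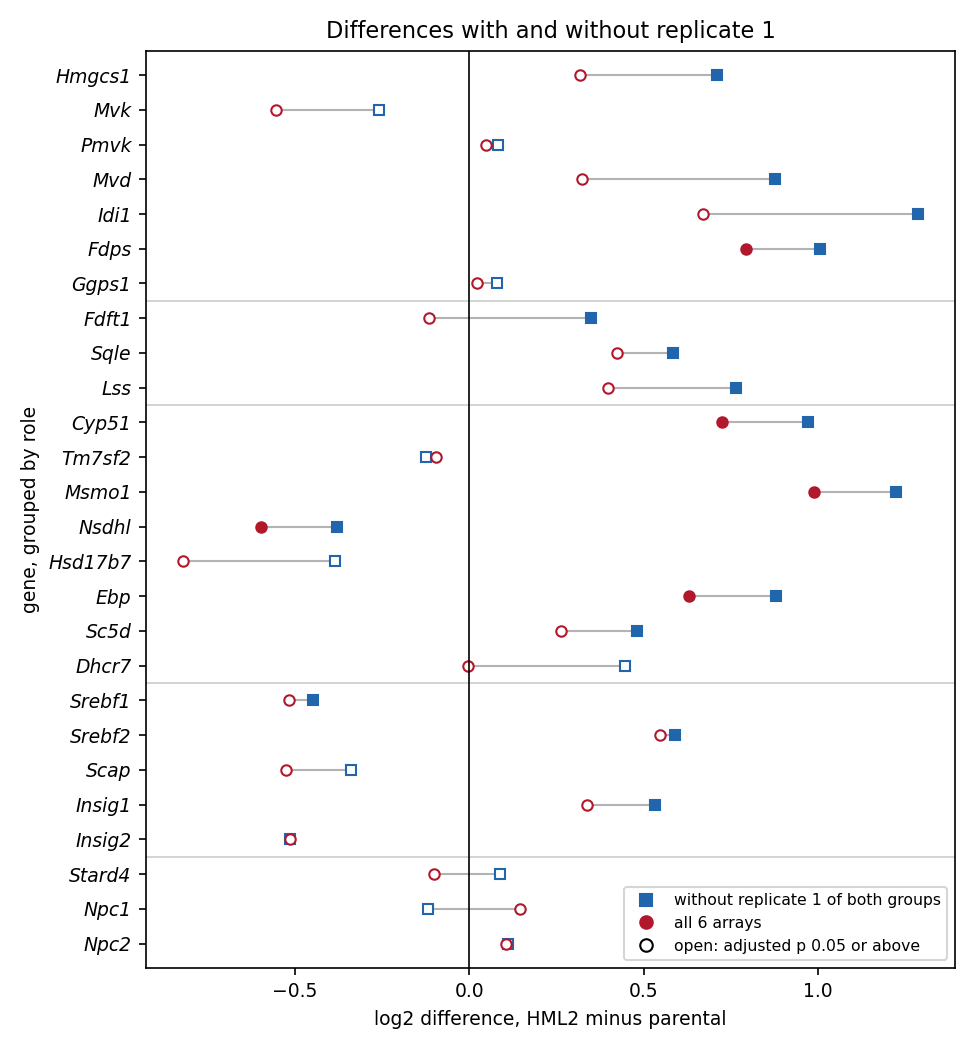
Log2 difference, HML2 minus parental, without replicate 1 of both groups (squares) and over all 6 arrays (circles) for each gene; filled symbols have an adjusted p below 0.05. Most enzymes move to the right without replicate 1, Idi1 farthest, to 1.29 from 0.67 over all arrays, whereas Srebf2 and Insig2 hardly move.

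Of the 26 genes, 14 had several probe sets above the filter, and in 7 of these (Fdft1, Ggps1, Lss, Npc2, Sc5d, Srebf2 and Stard4) the probe sets differed in sign. When each of 16412 probe sets was tested on its own, 4 probe sets of these genes were called higher, where 11.3% of all probe sets were, and 4 lower, where 14.1% were. The 4 lower ones lay in Nsdhl, Hsd17b7, Sc5d and Npc2. The dimmer probe set of Sc5d had 151, 273 and 231 in HML2 cells, against 738, 448 and 529.9 in parental cells, a difference of -1.21 ± 0.23 (adjusted p = 0.0063). The brighter one, used above, had 3061, 4241 and 4046 in HML2 cells and 3458, 2917 and 2994 in parental cells. The direction for Sc5d thus depended on the probe set, and the mean of its probe sets gave -0.47 (adjusted p = 0.093). For Npc2, 2 bright probe sets differed by 0.11 and 0.15, and a dim one, with a mean signal of 205, by -0.94 ± 0.29 (adjusted p = 0.044). The called direction of Fdps, Msmo1, Ebp and Nsdhl rests on 1 probe set each, and both probe sets of Cyp51 were higher in HML2 cells, the second by 0.38 ± 0.18 (adjusted p = 0.15).

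Neighbouring parts of sterol and lipid metabolism were read from 5 further lists. Their counts are to be read against all tested genes, of which 14.9% were lower and 12.3% higher, and with the replicate block 19.6% and 17.8%. At an unadjusted p below 0.05 (limma), 1955 of the 9361 tested genes were lower and 1715 higher. For handling and uptake of sterols, 9 of 14 listed genes were tested, and 2 were lower and 0 higher (limma; 3 and 1 at an unadjusted p below 0.05), with a median of 0.14. Lipa, the lysosomal lipase that frees cholesterol from its esters, had 450.3, 265 and 302 in HML2 cells, against 1728, 831 and 979.7 in parental cells. Both groups were highest on replicate 1 and did not overlap, and the difference was -1.62 ± 0.28 (adjusted p = 0.0041). Lrp1, an endocytic receptor of lipoproteins, had 359.5 ± 95.0 in HML2 and 747 ± 148 in parental cells (SD, n = 3 each), a difference of -0.97 ± 0.21 (adjusted p = 0.010). With the replicate block 2 genes, named after their values were seen, were higher as well: Scarb1, a receptor of high-density lipoprotein (0.34, adjusted p = 0.047), and Nceh1, a cholesterol ester hydrolase (0.41, adjusted p = 0.027). Of 13 genes tested for SREBP processing and sterol-dependent protein turnover, 1 was lower and 0 higher (limma; 2 and 1 unadjusted), with a median of -0.12. This was Rnf139 (-0.38 ± 0.12, adjusted p = 0.046), a ubiquitin ligase of the endoplasmic reticulum. Rnf145, another such ligase, had 4645, 9018 and 8206 in HML2 cells, against 5894, 5309.6 and 6007 in parental cells, with HML2 replicate 1 low as for the enzymes (difference 0.29 ± 0.23, adjusted p = 0.37).

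Among fatty acid genes under SREBP-1, 16 of 18 were tested, and 2 were lower and 0 higher (limma; 3 and 0 unadjusted), where 14.9% and 12.3% of all tested genes were, with a median of -0.06. Malic enzyme Me1, a source of NADPH, had 887 ± 83.5 in HML2 and 1491.5 ± 101 in parental cells (-0.72 ± 0.13, adjusted p = 0.0051). Gpam, which starts glycerolipid synthesis, had 1302.5 ± 69.0 in HML2 and 1717 ± 99.0 in parental cells (-0.39 ± 0.12, adjusted p = 0.043). With the replicate block Lpin1, a phosphatidate phosphatase, was lower too (-0.79, adjusted p = 0.0029). Of LXR factors and sterol efflux genes, 5 of 12 were tested, and 1 was lower and 0 higher (limma; 1 and 1 unadjusted), with a median of -0.06. Abcg1, which exports cholesterol to lipoproteins, had 1292, 993 and 833 in HML2 cells, against 2961, 1249 and 2066 in parental cells (-0.91 ± 0.29, adjusted p = 0.048). Its groups overlapped, since HML2 replicate 1 exceeded parental replicate 2. Lpcat3, a phospholipid acyltransferase under LXR, had a difference of 0.22 ± 0.19 (adjusted p = 0.42).

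The last list holds genes downstream of farnesyl diphosphate, for dolichol, coenzyme Q and prenylated proteins. Of its 14 members 13 were tested, with a median of 0.15. Among them 3 were higher and 0 lower (limma, 4 and 1 unadjusted), where 12.3% and 14.9% of all tested genes were. Nus1, a subunit of the enzyme that builds the dolichol chain, had 6122, 6705 and 7776 in HML2 cells, against 2761, 3380.4 and 3473 in parental cells. The groups lay far apart, and the difference was 1.09 ± 0.14 (adjusted p = 9.8e-04), larger than that of any of the 26 genes. Rabggtb, a subunit of the transferase that attaches geranylgeranyl groups to Rab proteins, had 2462 ± 349 in HML2 and 1490.3 ± 171 in parental cells (0.70 ± 0.15, adjusted p = 0.0094). Pdss2, a subunit of the enzyme that makes the side chain of coenzyme Q, had 685 ± 165 in HML2 and 407 ± 21.2 in parental cells (0.66 ± 0.19, adjusted p = 0.033). With the replicate block Rabggta, the other subunit of that Rab transferase, was higher too (0.62, adjusted p = 0.028, against 0.051 without the block).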

How the data were processed

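Expression was measured in 3 E0771-HML2 and 3 parental E0771 cultures, with 1 array each, from 15 ug of total RNA per the labels. The deposited values are linear signal intensities per probe set, produced by MAS5 according to the submitters' processing notes. Its release and parameters were not given in the sources used here. Scaling every array to the same mean hides any difference in total messenger RNA, and the table holds no detection calls. The number of arrays limits the precision.

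The array annotation is dated 2016. Of 45101 probe sets, 34945 had 1 gene symbol and 932 several, and 34741 were found in a RefSeq table of GRCm38.p6, used for symbols and chromosomes; no build is named for the array values. From the deposited intensities log2(signal + 50) was computed, and only probe sets whose signal averaged 100 or more across the 6 arrays entered the tests. Differences are HML2 minus parental on this log2 scale, which understates changes of dim genes. The test was lmFit and eBayes (with trend, without covariates) of limma 3.58.1, run under R 4.3.3, with Benjamini-Hochberg adjustment over 9361 genes; the script was tested on simulated data. Alternatives were offsets of 16 and 100, no filter or a mean signal of 200, quantile normalization, median centring, the mean of all probe sets, the replicate number as a block, array weights, no trend, arrays left out, and, added after seeing the data, every probe set on its own. The number was taken to pair arrays because all 3 same-number correlations exceeded 0.1. The correlation of HML2 replicate 3 with parental replicate 2 exceeded that bound too (0.24), so the pairing of HML2 replicate 3 is uncertain. The labels do not say what the number stands for.

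The 27 genes and the further lists were chosen with earlier results of these data known. All listed genes were named; of the further lists, up to 4 called genes with the largest difference were named, filled up to 2 with the brightest. Cd68, Lyz2, Csf1r, Cd3e, Kdr, Cdh5 and Tie1 and the genes called only with the block were named after their values were seen. Some genes of the pathway are not reported here.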

Additional observations from a re-analysis of the deposited data

Results flagged for a closer look

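Replicate 1 differed from the other arrays of its group in opposite directions. Its difference from the mean of replicates 2 and 3 had a median over the 26 genes of -0.35 log2 units in HML2 cells and of 0.46 in parental cells. The difference between the groups was not tested, since each value compares 1 array with 2. Groups of 3 arrays are too small for a search for single outlying arrays.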

How the results depend on the processing

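Over all 6 arrays, 4 genes of the list were higher and 1 lower, where 12.3% and 14.9% of all tested genes were. The number of lower genes was 2 with an offset of 100, where 1404 of all tested genes were lower. It was 4 when every probe set was tested on its own, where 14.1% of all probe sets were lower. That alternative was chosen after seeing the data. The number of lower genes was 0 without a filter on signal and 0 with median centring (limma; 6 and 5 at an unadjusted p below 0.05). In the main fit 1955 of the 9361 tested genes were lower at that unadjusted threshold. Without the filter 923 of all 18193 genes were higher and 1241 lower, and 3 genes of the list were higher. With median centring 6 were, Sqle (adjusted p = 0.038) and Srebf2 (0.047) among them, and all tested genes split into 1357 higher and 1178 lower, against 1155 and 1395. With the replicate block the number of lower genes was 5, and 6 genes were higher, where 19.6% and 17.8% of all tested genes were. The block changed the call of Sqle, Hsd17b7, Srebf1, Srebf2, Scap and Insig2 and of no other gene of the list. Array weights gave 11 higher and 6 lower genes of the list, and 2422 higher and 2631 lower among all tested genes. Without replicate 1 of both groups the list had 13 higher and 3 lower genes and a median of 0.40. Of all tested genes 18.1% were then higher and 19.7% lower. Leaving out 1 array at a time gave 1 (without parental replicate 3) to 9 (without HML2 replicate 1) higher and 0 (without any 1 parental array; limma, 2 to 5 unadjusted) to 3 lower genes of the list, medians of 0.01 to 0.30, and 590 to 1577 higher and 795 to 1845 lower genes among all tested.

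Genes that were not called over all arrays turned their sign in places. Quantile normalization gave 0.0028 for Tm7sf2 and 0.057 for Dhcr7, and median centring 0.056 for Dhcr7. The mean of all probe sets gave 0.019 for Fdft1, -0.47 for Sc5d, 0.082 for Stard4 and -0.23 for Npc2. Array weights gave 0.13 for Fdft1, 0.33 for Dhcr7 and -0.073 for Npc1. Without replicate 1 of both groups the values were 0.35 for Fdft1, 0.45 for Dhcr7, 0.089 for Stard4 and -0.12 for Npc1. With 1 array left out, ranges crossing 0 were -0.022 to 0.15 for Pmvk, -0.29 to 0.15 for Fdft1, -0.30 to 0.13 for Tm7sf2, -0.22 to 0.27 for Dhcr7, -0.31 to 0.41 for Npc1, -0.044 to 0.26 for Npc2 and -0.068 to 0.079 for Ggps1. Of these, only Fdft1 without replicate 1 of both groups passed the test. The cause was not tested. Signals near the filter, as for Tm7sf2 and Mvd, limit what can be seen, and both genes fell out of the test at a mean signal of 200.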
